A study of Mus musculus with 6 samples.

Results

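Inhibitory receptors of T cells and their ligands were examined in CD4+CD25+ regulatory T cells (Treg) that lacked the deacetylase HDAC6. The set comprised 10 genes: the receptors Ctla4, Lag3, Pdcd1, Havcr2, Tigit, Btla and Cd160, and the ligands Cd274, Pdcd1lg2 and Cd200. Every probe set (a group of array probes read as 1 value) whose platform annotation named a single gene of the set was taken. This gave 10 probe sets for 8 genes, 3 of them for Cd160, among 22626 probe sets tested. Tigit and Btla had 0 probe sets of their own here, so their transcripts were not analysed here.

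The knockout group held Treg of mice labelled as HDAC6 knock out (3 arrays), and the wild-type group Treg of C57BL6 mice (3 arrays). Cells had been separated magnetically in both groups. The knockout allele, the background strain of the knockout, the age of the animals and whether a sample came from 1 animal or several are unknown, so p-values measure only the spread between these samples, which may be technical. The series' title places HDAC6 beside the chaperone HSP90 in the function of Foxp3+ Treg, and the comparison asks how transcript levels differ when HDAC6 is lost.

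Inhibitory receptors are surface proteins that dampen the signal a T cell receives through its antigen receptor, mostly by bringing phosphatases to the membrane or by competing with costimulatory receptors for ligands. CTLA-4, which Treg carry constitutively, captures CD80 and CD86 from antigen-presenting cells, and LAG-3 binds MHC class II molecules. PD-1 (Pdcd1) binds PD-L1 (Cd274) and PD-L2 (Pdcd1lg2), TIM-3 (Havcr2) binds galectin-9 among others, TIGIT binds the poliovirus receptor (Pvr), and BTLA and CD160 share the ligand HVEM (Tnfrsf14). CD200 is a ligand that restrains myeloid cells through its receptor CD200R.

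Array medians were 6.23 to 6.26 in the knockout and 6.22 to 6.27 in wild type on the log2 scale, and Pearson's r across probe sets within a genotype was 0.994 to 0.996. Hdac6 itself averaged 7.68 ± 0.16 in the knockout and 8.39 ± 0.16 in wild type (SD, n = 3 each), a difference of -0.71 (SE 0.11, limma adjusted p = 0.0775 over genes). The deleted stretch of the gene is not stated, so this probe set may or may not lie in it. Of 13 markers of Treg and CD4 T cells 0 averaged below the arrays' lower quartile. The B cell, plasma cell, CD8 T and NK cell and follicular T cell lists described further on also had 0 below it. This bar therefore cannot tell Treg from other cells. Foxp3, the factor that defines Treg, averaged 10.32 ± 0.12 in the knockout and 10.26 ± 0.06 in wild type (SD, n = 3 each). Il2ra, which encodes CD25, averaged 9.44 ± 0.14 in the knockout and 9.43 ± 0.18 in wild type (SD, n = 3 each). Of the 13 markers 9 were higher and 4 lower in the knockout and 0 passed the threshold, with the smallest p for Gpr83 (-0.47), Nrp1 (0.38) and Nt5e (0.76).

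Knockout and wild type were compared by limma's moderated test over all probe sets, and a Benjamini-Hochberg adjusted p under 0.05 counted as passing. All differences are log2, knockout minus wild type. By this test 0 of the 10 probe sets of the inhibitory set passed. Over all probe sets 44 of 22626 (0.194%) passed, 0.0796% higher and 0.115% lower in the knockout, and 0 of 10 is near that background. Above 0 were 5 of the 10 differences, against 49.6% of all probe sets. At an unadjusted p under 0.05 stood 5 of the 10, against 10.6% of all probe sets. The genotypes were apart, with no knockout array inside the wild-type range or the reverse, for 5 of the 10, against 17.2% of all probe sets. Of these, Lag3, Pdcd1, Cd274 and Pdcd1lg2 were higher in the knockout (4 of 10, against 7.68% of all probe sets) and Cd200 was lower (1 of 10, against 9.48%). The genes had been chosen with results of these arrays known, so these shares describe the set and do not test it. The median difference was 0.19 over the 8 genes, each by its brightest probe set, and -0.04 over the 10 probe sets, where Cd160 counts 3 times. The medians over all genes and all probe sets were both 0.00.

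**Figure D1:**
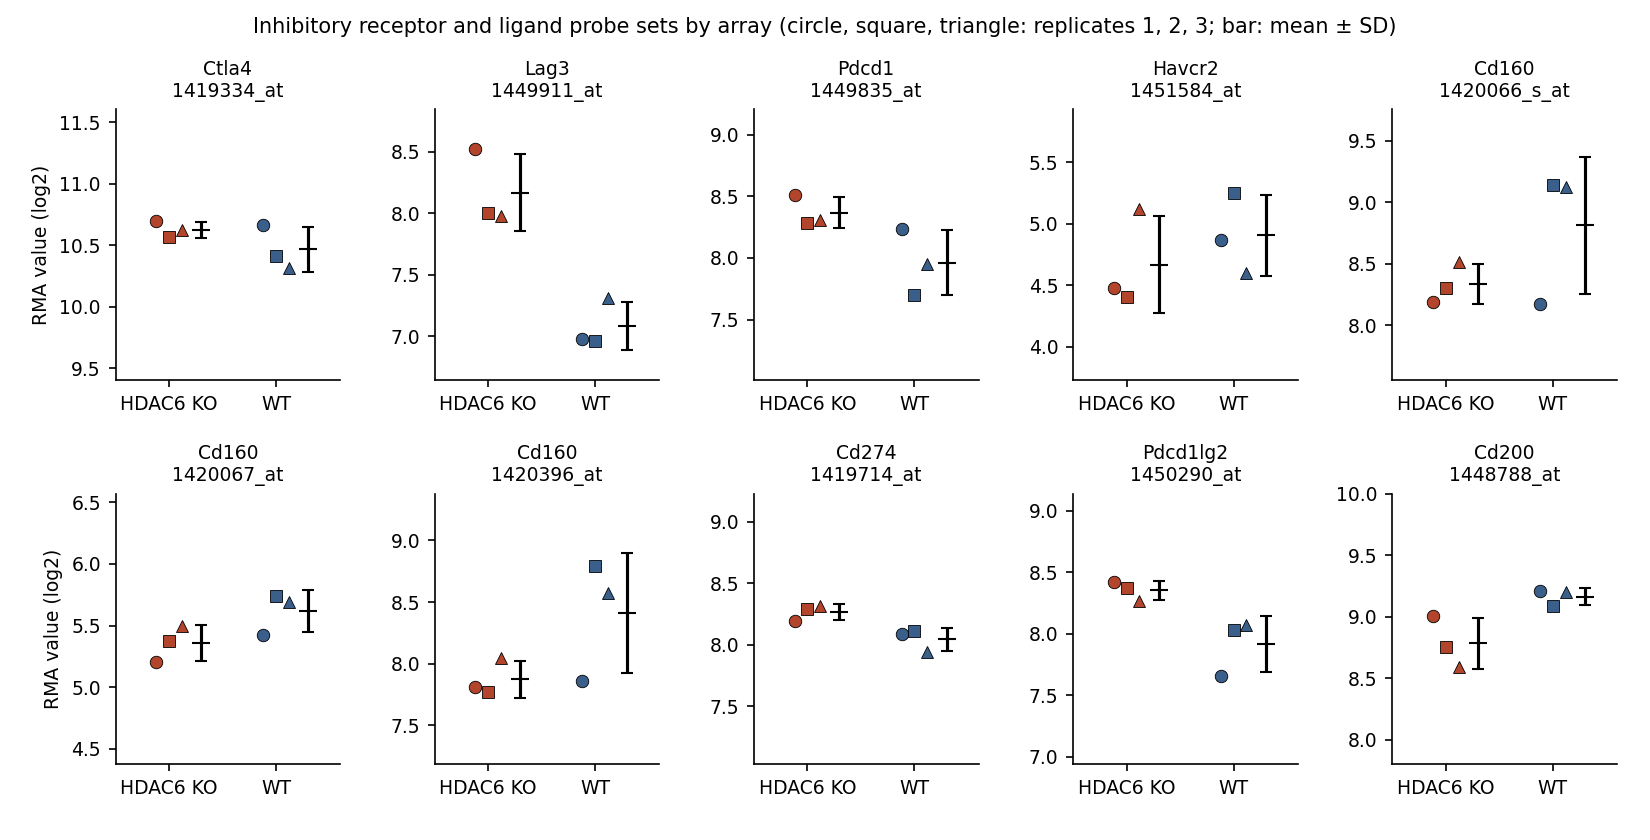
RMA values (log2, every panel spanning 2.2 units) of the 10 probe sets in HDAC6 knockout (left, red) and wild-type (right, blue) Treg, with circles, squares and triangles for replicates 1, 2 and 3 and a bar for the mean ± SD of each genotype. Lag3 shows the widest gap between genotypes, with knockout arrays between 7.98 and 8.53 and wild-type arrays between 6.96 and 7.31, while Ctla4, Havcr2 and Cd160 overlap.

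Among the receptors, Lag3 differed most. LAG-3 is a relative of CD4 that binds MHC class II and is carried by activated T cells and by Treg of high suppressive activity. The signal of 1449911_at stood at 8.525, 7.998 and 7.981 in knockout arrays, against 6.979, 6.965 and 7.310 in wild-type arrays. All knockout arrays lay above all wild-type arrays, and replicate 1 was the highest of the knockout. The difference was 1.08 (SE 0.17, 95% interval 0.68 to 1.48), or 2.12-fold, with a limma adjusted p of 0.0849 over probe sets and 0.0775 over genes, so it did not pass. By unadjusted p the Lag3 probe set ranked 93 of 22626. Leaving out knockout replicate 1 gave 0.91 and leaving out wild-type replicate 3 gave 1.20, the extremes over the 6 arrays. With trend and robust variance settings the probe set passed (limma adjusted p = 0.0247, the lowest over its alternatives, which ran up to 0.343).

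Ctla4 was the brightest of the set. Its probe set 1419334_at read 10.69, 10.56 and 10.62 in the knockout, against 10.66, 10.41 and 10.31 in wild type. Wild-type replicate 1 lay within the knockout range and the other wild-type arrays below it. The difference was 0.16 (SE 0.10, 95% interval -0.08 to 0.40, limma adjusted p = 0.634), and it was 0.09 without wild-type replicate 3 and 0.26 without wild-type replicate 1. The interval spans no difference, a gain of at most 0.40 and a loss of at most 0.08.

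Pdcd1, which encodes PD-1, was read by 1449835_at at 8.51, 8.28 and 8.31 in the knockout, against 8.23, 7.70 and 7.95 in wild type. The knockout arrays were all higher, but the lowest of them exceeded wild-type replicate 1 by little. The difference was 0.41 (SE 0.14, 95% interval 0.07 to 0.74, limma adjusted p = 0.367).

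Havcr2, the gene of the late-activation receptor TIM-3, was dim. Its probe set 1451584_at read 4.47, 4.41 and 5.12 in the knockout, against 4.87, 5.25 and 4.60 in wild type, near the arrays' lower quartiles (4.15 to 4.25 in the knockout and 4.14 to 4.23 in wild type). The genotypes overlapped, and the difference of -0.24 (SE 0.23, 95% interval -0.78 to 0.30, limma adjusted p = 0.767) ranged from -0.47 without knockout replicate 3 to -0.07 without wild-type replicate 2. Without detection calls, expression of Havcr2 in these cells is not established.

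Cd160 encodes a receptor that binds HVEM and is carried mainly by NK cells, CD8 T cells and other innate-like lymphocytes. Its 3 probe sets pointed the same way, all lower in the knockout without passing. The brightest, 1420066_s_at, read 8.19, 8.31 and 8.51 in the knockout, against 8.17, 9.14 and 9.12 in wild type. Wild-type replicate 1 read below all knockout arrays there, and the other wild-type arrays above all of them. The second, 1420396_at, read 7.81, 7.77 and 8.04 in the knockout, against 7.86, 8.79 and 8.58 in wild type, with the same wild-type array low. The dimmest, 1420067_at, read 5.21, 5.37 and 5.50 in the knockout, against 5.42, 5.74 and 5.69 in wild type. Across the 3 probe sets the differences were -0.47 (SE 0.26), -0.54 (SE 0.23) and -0.26 (SE 0.12), with limma adjusted p of 0.580, 0.470 and 0.487. Wild-type replicate 1 decided much of this: without it the differences were -0.79, -0.81 and -0.36, with a lowest limma adjusted p of 0.107, and without wild-type replicate 2 they were -0.31, -0.35 and -0.20. The 3 probe sets measure 1 gene in the same samples and are not independent.

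Both ligands of PD-1 were higher in all knockout arrays than in all wild-type arrays. Pdcd1lg2, which encodes PD-L2, was read by 1450290_at at 8.42, 8.37 and 8.27 in the knockout, against 7.66, 8.03 and 8.07 in wild type. Wild-type replicate 1 was the lowest of the 6. The difference was 0.44 (SE 0.12, 95% interval 0.16 to 0.72, limma adjusted p = 0.258), and 0.31 without wild-type replicate 1. Cd274, which encodes PD-L1, was read by 1419714_at at 8.19, 8.29 and 8.32 in the knockout, against 8.08, 8.11 and 7.94 in wild type. The gap between the groups was narrower than the range within either of them, with a difference of 0.22 (SE 0.08, 95% interval 0.04 to 0.40, limma adjusted p = 0.378). Neither ligand passed.

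Cd200 differed in the opposite direction from the PD-1 ligands. Its probe set 1448788_at stood at 9.005, 8.756 and 8.590 in the knockout, against 9.210, 9.084 and 9.197 in wild type. Every knockout array was below every wild-type array, with knockout replicate 1 closest to wild type. The difference was -0.38 (SE 0.11, 95% interval -0.65 to -0.11), and limma's adjusted p of 0.305 did not pass.

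**Figure D2:**
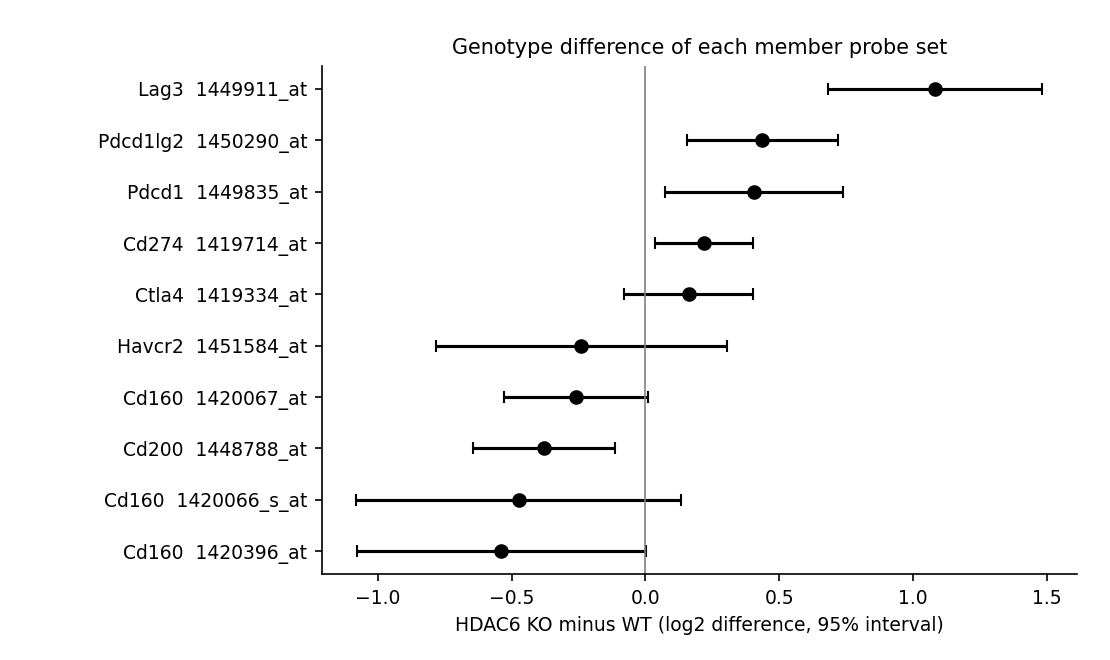
Difference between genotypes for each of the 10 probe sets (horizontal axis, HDAC6 knockout minus wild type on the log2 scale; points with 95% intervals from limma, n = 3 per genotype), ordered by size. The intervals of Lag3, Pdcd1lg2, Pdcd1, Cd274 and Cd200 leave out 0 before adjustment for 22626 tests, from 1.08 for Lag3 to -0.38 for Cd200.

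Promoters are shown for the members apart between genotypes that matched RefSeq's promoter table in build GRCm38.p6, which holds 9 of the 10 genes, all but Lag3. Each sequence is the 250 bases before the gene's start, read 5′ to 3′ on the gene's strand, and capitals mark letters matching a searched motif on either strand; no matches overlap. The windows are chr1:94052554-94052803 (minus strand) for Pdcd1, chr19:29367188-29367437 (plus strand) for Cd274, chr19:29410669-29410918 (plus strand) for Pdcd1lg2 and chr16:45409054-45409303 (minus strand) for Cd200.
Pdcd1: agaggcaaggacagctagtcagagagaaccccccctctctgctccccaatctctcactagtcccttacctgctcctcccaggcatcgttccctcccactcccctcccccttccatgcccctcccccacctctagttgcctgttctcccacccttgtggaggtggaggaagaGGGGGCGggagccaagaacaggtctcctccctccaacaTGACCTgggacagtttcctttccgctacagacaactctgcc
Cd274: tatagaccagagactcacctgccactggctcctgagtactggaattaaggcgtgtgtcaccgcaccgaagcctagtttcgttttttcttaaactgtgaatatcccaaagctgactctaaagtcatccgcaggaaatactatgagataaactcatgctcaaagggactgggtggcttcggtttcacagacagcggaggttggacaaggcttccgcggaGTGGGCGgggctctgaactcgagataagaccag
Pdcd1lg2: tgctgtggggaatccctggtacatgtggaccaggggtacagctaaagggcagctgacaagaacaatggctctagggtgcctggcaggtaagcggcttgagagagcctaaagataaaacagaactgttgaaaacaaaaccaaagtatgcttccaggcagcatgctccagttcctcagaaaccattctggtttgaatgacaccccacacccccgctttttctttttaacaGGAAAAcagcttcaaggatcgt
Cd200: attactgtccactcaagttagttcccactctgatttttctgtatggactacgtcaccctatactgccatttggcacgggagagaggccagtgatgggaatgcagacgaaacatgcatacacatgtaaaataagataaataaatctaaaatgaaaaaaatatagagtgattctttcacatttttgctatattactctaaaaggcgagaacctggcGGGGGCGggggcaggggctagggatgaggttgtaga

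The motifs searched were those of factors on the list of regulators described further on, with interferon, STAT and heat shock motifs added. The EGR core GNGGGCG stood in Pdcd1 (bases -79 to -73 from the start), Cd274 (-33 to -27) and Cd200 (-36 to -30), and in 28.3% of all 32851 promoters of this length. The NR4A core AGGTCA stood in Pdcd1 at -41 to -36, on the opposite strand, and in 14.0% of all promoters. The NFAT core GGAAAA stood in Pdcd1lg2 at -22 to -17 and in 20.4% of all promoters. In the Ctla4 promoter, which is not printed, GGAAAA stood on the opposite strand at -145 to -140. The heat shock core GAANNTTC, in 6.69% of all promoters, stood there at -171 to -164 and in the unprinted Havcr2 promoter at -135 to -128. The AP-1 and BATF site TGANTCA (6.75% of all promoters), the MAF half-site TGCTGA (16.1%), the NFIL3 letters TTANNTAA (5.43%), the STAT letters TTCNNNGAA (7.02%) and the paired IRF core (2.98%) were in none of the 4 printed windows, which says only that these letters are not there. Unprinted promoters held some of them: NFIL3 letters in Tigit and Btla, an AP-1 and BATF site in Havcr2, and a MAF half-site and STAT letters in Cd160. Tigit also held the NFAT core and Havcr2 the NR4A core. In base composition the 4 printed windows ranged from 42.4% GC for Cd200 to 60.4% for Pdcd1, around a median of 52.4% over all promoters. CpG pairs numbered 3 in Pdcd1 and Pdcd1lg2, 6 in Cd200 and 11 in Cd274, against a median of 6.

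Lag3 was set beside the genes around it on chromosome 6, where it lies next to its relative Cd4. In RefSeq gene order the 2 nearest measured genes on each side were Gpr162 and Cd4 before it and Ptms and Mlf2 after it. Cd4, the coreceptor by which the cells were chosen, averaged 9.93 ± 0.13 in the knockout and 9.72 ± 0.10 in wild type (SD, n = 3 each), with overlap and a difference of 0.21 (SE 0.09). Ptms, which encodes the small nuclear protein parathymosin, differed by 0.28 (SE 0.07) and Mlf2 by 0.18 (SE 0.07), both with the knockout arrays above all wild-type arrays. Gpr162 differed by -0.01 (SE 0.11). None of these 4 passed (limma adjusted p 0.186 to 0.984 over genes), and each difference was at most 0.28, against 1.08 for Lag3. Over the 32 measured neighbours of the 10 genes 20 were higher and 12 lower, 0 passed, and the median was 0.03, against 0.00 over all genes. Besides Ptms and Mlf2 the smallest p belonged to St8sia4 beside Pdcd1 (0.16, SE 0.06). Cd274 and Pdcd1lg2 are themselves neighbours on chromosome 19. The measured genes flanking that pair, Plgrkt and Ermp1, differed by -0.003 (SE 0.06) and 0.09 (SE 0.08).

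**Figure D3:**
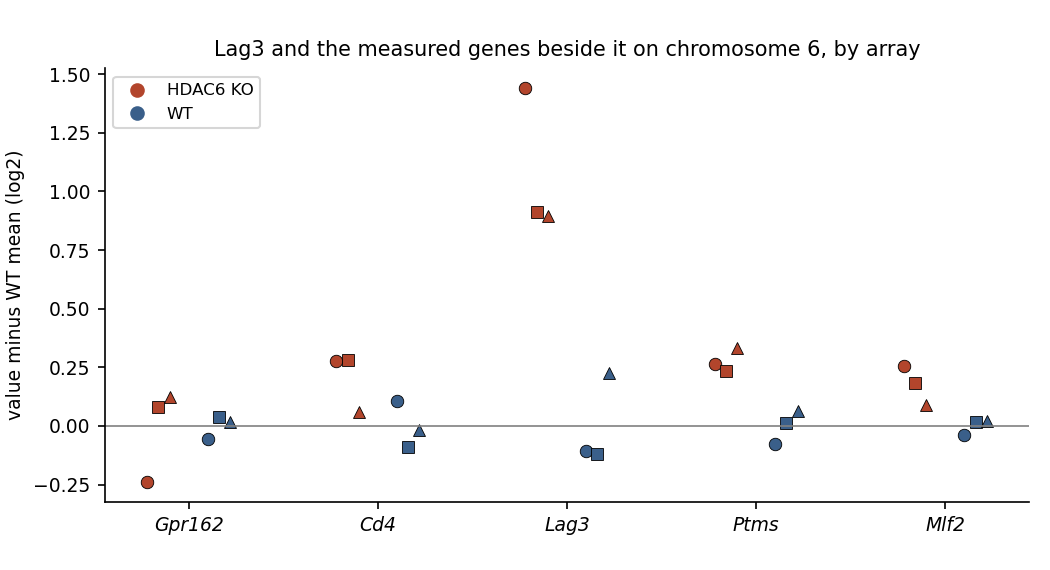
Values minus the wild-type mean (log2) of Lag3 and the measured genes beside it on chromosome 6, in gene order, with knockout arrays left (red) and wild-type arrays right (blue) and circles, squares and triangles for replicates 1, 2 and 3. Lag3 lies 0.90 to 1.44 above the wild-type mean in the knockout arrays, while its neighbours lie within 0.33 of theirs.

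Transcription factors tied to inhibitory receptor genes were mostly higher in the knockout. Of 19 measured factors 15 were higher and 4 lower, with a median of 0.13 against 0.00 over all genes, of which 50.7% were higher. By limma 0 passed over genes, where 0.169% of 12393 genes passed (0.0565% higher and 0.113% lower). At an unadjusted p under 0.05 stood 8, against 11.8% of all genes. Of the 8, Tbx21 was lower in the knockout (-0.44, SE 0.15), with overlap, and the others were higher. The genotypes were apart for 7, all higher, against 8.28% of all genes apart and higher and 10.3% apart and lower. This list and those below were also chosen with earlier results of these data known, so their shares describe them and do not test them. Nfil3, a factor that promotes Tim-3 expression in mouse T cells, came closest: it read 7.45, 7.27 and 7.37 in the knockout, against 6.52, 6.74 and 6.74 in wild type, a difference of 0.70 (SE 0.09, limma adjusted p = 0.0506 over genes). All 3 knockout arrays were above the wild-type arrays. Nfil3 lay at the edge of the threshold and passed with quantile normalization, array weights, trend and robust settings or either filter on dim probe sets. Nfatc1, the calcium-dependent factor known to drive Pdcd1 in activated T cells, read 9.60, 9.33 and 9.24 in the knockout, against 8.96, 8.95 and 8.82 in wild type, again apart. Its difference was 0.48 (SE 0.10, limma adjusted p = 0.148 over genes). Maf, which with Prdm1 drives a programme of inhibitory receptors and interleukin-10 in mouse T cells, differed by 0.33 (SE 0.08, limma adjusted p = 0.171). Its probe set was dim, below the arrays' medians, at 5.58, 5.52 and 5.40 in the knockout, against 5.08, 5.21 and 5.22 in wild type. Prdm1 differed by 0.13 (SE 0.17), or 0.01 without knockout replicate 1 and 0.32 without knockout replicate 2. The widest difference of the list belonged to Bach2, a repressor that maintains Treg, which was named after its values were seen. It read 9.28, 9.43 and 9.43 in the knockout, against 6.92, 8.59 and 8.72 in wild type (1.30, SE 0.44, and 0.72 without wild-type replicate 1).

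Signalling partners of the receptors gave 5 higher and 9 lower of 14 measured, with a median of -0.04, and 0 passed. The genotypes were apart for 1 higher and 4 lower, against 18.6% of all genes apart either way, and 3 had an unadjusted p under 0.05. Ptpn11, which encodes the phosphatase SHP-2 that PD-1 and BTLA recruit, read 9.67, 9.49 and 9.57 in the knockout, against 9.26, 9.24 and 9.21 in wild type. The groups were apart, with a difference of 0.34 (SE 0.07, limma adjusted p = 0.131 over genes). Ptpn11 passed with trend and robust settings. Ptpn6, the gene of the related phosphatase SHP-1, differed by -0.17 (SE 0.08). The adaptor gene Pag1, whose product holds the inhibitory kinase CSK at the membrane, and Pik3r1, a regulatory subunit of PI3-kinase, differed by -0.22 (SE 0.07) and -0.25 (SE 0.08), each with all knockout arrays below the wild-type arrays.

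Genes for trafficking and shedding of the receptors went both ways, 5 of 10 higher and 5 lower, with a median of -0.01 and 0 passed. Lrba, whose product protects CTLA-4 from lysosomal degradation, read 8.90, 8.79 and 8.98 in the knockout, against 8.55, 8.58 and 8.53 in wild type, apart, a difference of 0.34 (SE 0.07, limma adjusted p = 0.137 over genes). Trat1, the gene of the adaptor TRIM that carries CTLA-4 to the surface, differed by -0.42 (SE 0.16), and by -0.24 without knockout replicate 3. Cmtm6, which stabilises PD-L1, differed by -0.09 (SE 0.06). Both Trat1 and Cmtm6 had all knockout arrays below the wild-type arrays. Adam10 and Adam17, the proteases that cleave LAG-3 from the surface, differed by -0.02 (SE 0.06) and -0.09 (SE 0.08).

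Ligands and counter-receptors were split evenly, 6 of 12 higher and 6 lower, with a median of -0.01, and 0 passed. MHC class II genes, whose products LAG-3 binds, were not on this list. H2-Aa (-0.34) and H2-Eb1 (-0.30) are counted with the myeloid markers further on. Tnfrsf14, the gene of HVEM, to which both BTLA and CD160 bind, read 5.16, 5.28 and 5.23 in the knockout, against 8.10, 7.05 and 5.25 in wild type. Wild-type replicate 3 read like the knockout arrays, and the other wild-type arrays were far above them. The difference of -1.58 had an SE of 0.63 (limma adjusted p = 0.393 over genes), and was -0.92 without wild-type replicate 1 and -2.35 without wild-type replicate 3. Cd86, a ligand of CTLA-4 and CD28, differed by 0.23 (SE 0.09) and its partner Cd80 by -0.13 (SE 0.13). Tnfsf14, another ligand of HVEM, differed by -0.28 (SE 0.12), or -0.17 without wild-type replicate 3.

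Other inhibitory receptors gave 4 higher and 5 lower of 9 measured, with a median of -0.02 and 0 passed. Cd96, a receptor that shares the ligand Pvr with TIGIT, differed by 0.35 (SE 0.12, limma adjusted p = 0.339 over genes), with all knockout arrays above the wild-type arrays, and by 0.21 without wild-type replicate 3. Cd244a, a receptor of NK and CD8 T cells, was dim, at 4.28, 4.38 and 5.09 in the knockout, against 5.48, 5.66 and 5.01 in wild type. Its groups overlapped, with a difference of -0.80 (SE 0.25). Klrc1, which encodes NKG2A, differed by 0.58 (SE 0.32), also with overlap. Leaving out wild-type replicate 1 gave 0.30 for Klrc1, and leaving out wild-type replicate 3 gave 0.94. Costimulatory receptors of the immunoglobulin family gave 2 higher and 6 lower of 8, with a median of -0.06 and 0 passed. Icos and Cd28, which neighbour Ctla4 on chromosome 1, differed by 0.18 (SE 0.12) and -0.02 (SE 0.09). Without wild-type replicate 3 Icos differed by 0.06, and Cd28 turned to 0.04 without knockout replicate 3. The smallest p of that list belonged to Cd84 (-0.18, SE 0.08), Slamf1 (0.13, SE 0.07) and Slamf6 (-0.42, SE 0.26), which are receptors of the SLAM family, and Slamf6 stood at -0.11 without wild-type replicate 1 and -0.67 without wild-type replicate 3.

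**Figure D4:**
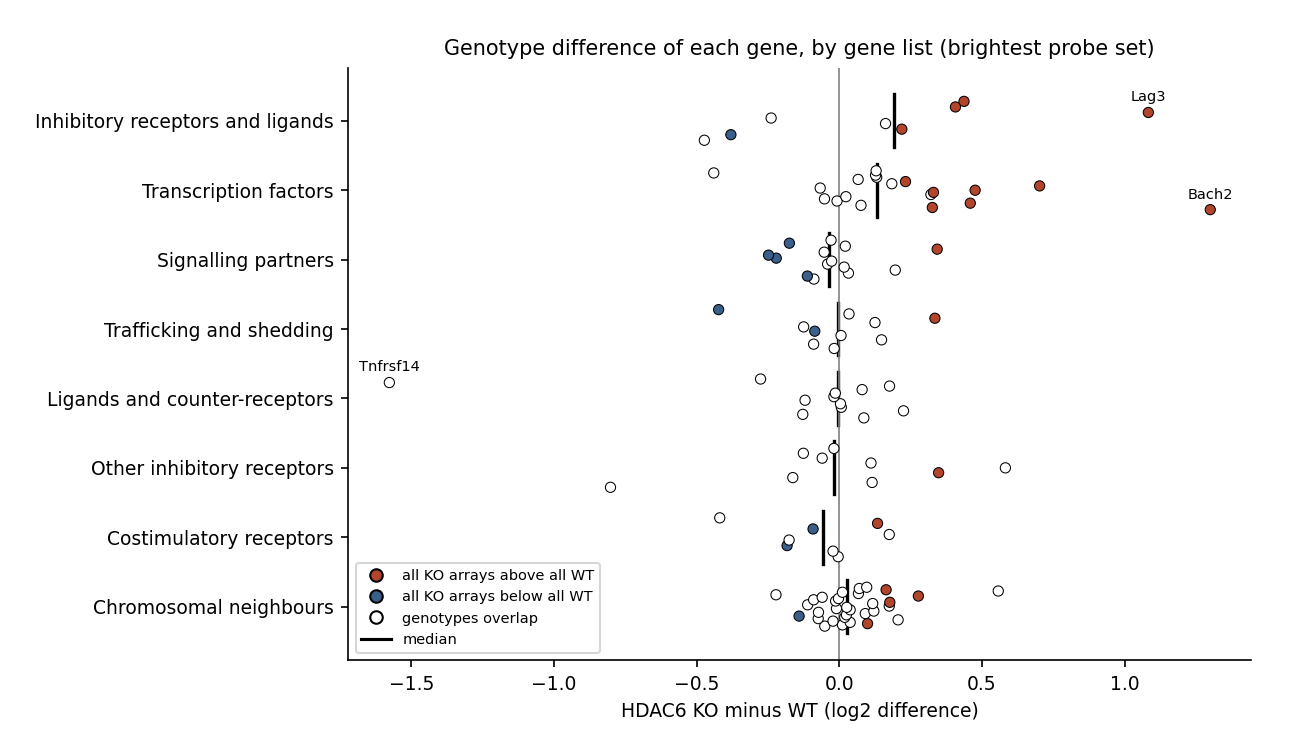
Difference between genotypes (horizontal axis, HDAC6 knockout minus wild type, log2) of each measured gene by its brightest probe set, in 8 lists; red points had all knockout arrays above all wild-type arrays, blue points all below, and white points overlapped, with a bar at each median. The medians are 0.19 for the inhibitory set and 0.13 for the transcription factors, and between -0.06 and 0.03 for the other 6 lists.

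Markers of other cell types were read beside these results, because several members are also made outside Treg. LAG-3 is carried by conventional activated T cells, NK cells and some mouse plasma cells, PD-L1, PD-L2 and TIM-3 by myeloid cells, CD200 by B cells and CD160 by NK cells. In such bulk samples a change in the number of cells of a type and a change in RNA per cell cannot be told apart. Plasma cell markers were higher in the knockout for all 6 measured genes, with a median of 0.73, where 50.7% of all genes were higher. The genotypes were apart for 5 of the 6, against 8.28% of all genes apart and higher. Their summed signal was 14.99 to 15.12 in the knockout and 13.52 to 14.04 in wild type on the log2 scale. Igha and Jchain made up 97.3% to 98.5% of it in every array, so it mainly restates these transcripts. The sum of the other 4 genes was 8.89 to 9.78 in the knockout and 8.28 to 8.68 in wild type, also apart. The immunoglobulin A gene Igha rose by 1.81 (SE 0.14, limma adjusted p = 0.0101 over genes), the 1 gene of the marker lists that passed. It did not pass without knockout replicate 2 or without wild-type replicate 2, where limma's adjusted p reached 0.0687. Jchain and Derl3 differed by 0.58 (SE 0.14) and 0.82 (SE 0.26). Like Lag3, Pdcd1, Cd274 and Pdcd1lg2 this list was higher in the knockout, and its part in their differences was not tested.

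B cell markers had 4 of 9 genes higher and 5 lower, with a median of -0.32 and summed signals of 10.21 to 10.75 in the knockout and 10.61 to 11.03 in wild type. The brightest were Cd79b (-0.32, SE 0.15, or -0.19 without knockout replicate 1), Ms4a1, which encodes CD20 (-1.13, SE 0.29), and Cd22 (0.12, SE 0.14). Cd200 was lower in the knockout, while this list went both ways and its sums overlapped. The part of B cells in the difference of Cd200 was not tested. CD8 T and NK cell markers had 2 of 9 higher and 7 lower, with a median of -0.17 and summed signals of 10.67 to 10.98 in the knockout and 10.76 to 11.27 in wild type. The brightest were Nkg7 (-0.17, SE 0.14), Klrd1 (0.10, SE 0.24) and Xcl1 (-0.23, SE 0.25), all overlapping, and Klrd1 stood at -0.13 without wild-type replicate 1. Gzma, the gene of granzyme A, at -1.03 (SE 0.25), and Cd8b1, a CD8 chain, at -0.37 (SE 0.08), had all knockout arrays below the wild-type arrays, while Cd8a, the other CD8 chain, at 0.25 (SE 0.08), had them above. Wild-type replicate 1 had the lowest sum of the wild-type arrays, as it had the lowest Cd160, and whether these cells account for Cd160 was not tested.

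Myeloid and dendritic cell markers had 5 of 14 higher and 9 lower, with a median of -0.12 and 2 of the 14 below the arrays' lower quartile. Sums were 11.92 to 12.30 in the knockout and 12.11 to 12.33 in wild type. They mainly restate Cd74 (0.02, SE 0.11), H2-Aa (-0.34, SE 0.13) and H2-Eb1 (-0.30, SE 0.11). They say little of dimmer markers such as Lyz2 (-0.45, SE 0.31), Fcgr3 (-0.57, SE 0.26), Flt3 (0.13, SE 0.14) and Csf1r (0.02, SE 0.13), all overlapping. The list went both ways. Cd209a was apart and higher (0.34, SE 0.10), while the bright H2-Eb1 and the dim Cd14 (-0.19, SE 0.07) were apart and lower. The part of myeloid cells in the differences of Cd274, Pdcd1lg2 and Havcr2 was not tested. Follicular T cell markers had 3 of 5 higher and 2 lower. Their sums were 10.69 to 10.89 in the knockout and 10.60 to 10.76 in wild type. Sh2d1a (-0.03, SE 0.08), the brightest, gave the largest part of the sum in every array. Next by mean level were Cxcr5 (0.72, SE 0.11) and Bcl6 (0.08, SE 0.10, or -0.02 without knockout replicate 1). Cxcr5 had all knockout arrays above all wild-type arrays and did not pass (limma adjusted p = 0.0775 over genes). The widest differences of that list were in opposite directions, 1.30 (SE 0.35) for the cytokine gene Il21 and -1.15 (SE 0.24) for Il4, both with the genotypes apart and neither passing. Pdcd1 is a marker of these cells too, and their part in its difference was not tested. The last list held 4 stromal and endothelial genes and the epithelial gene Epcam, all 5 higher by at most 0.23 and all overlapping. Its summed signal was 8.22 to 8.62 in the knockout and 8.01 to 8.39 in wild type, and Epcam (0.23, SE 0.21) made up at least 58.4% of it in every array. Without Epcam the sum was 6.62 to 6.87 in the knockout and 6.59 to 6.74 in wild type, led by Pdgfrb (0.06, SE 0.10) and Col1a1 (0.03, SE 0.10).

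**Figure D5:**
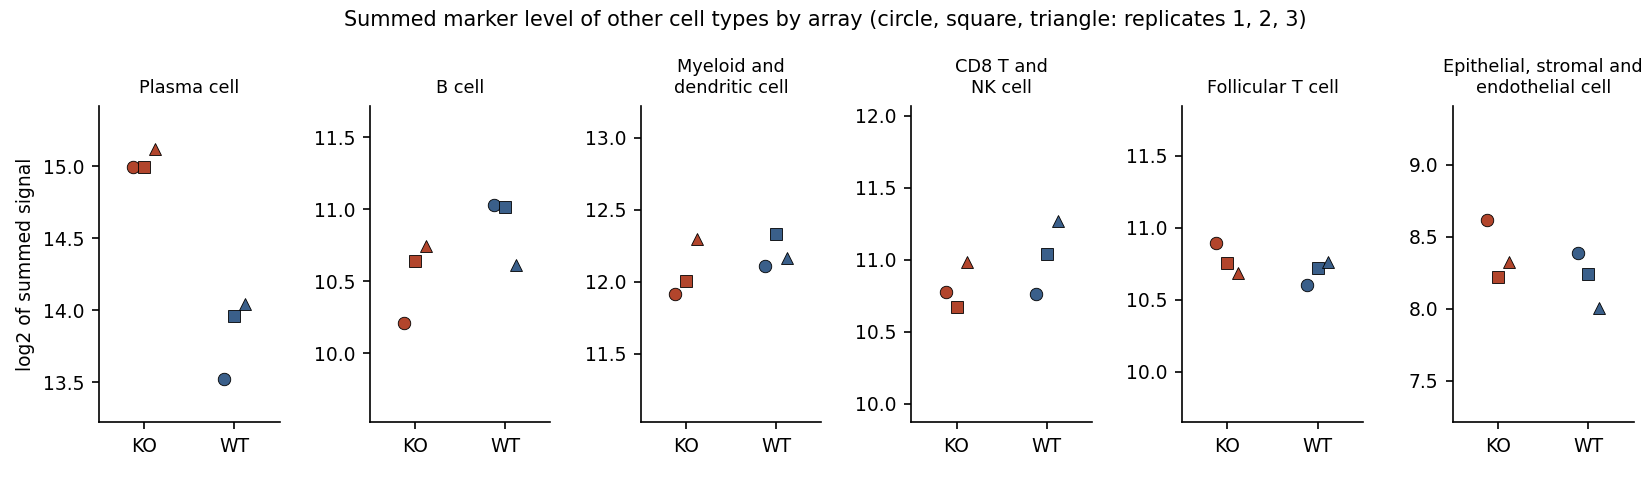
Summed signal (log2, every panel spanning 2.2 units) of 6 marker lists of other cell types in knockout (left, red) and wild-type (right, blue) arrays, with circles, squares and triangles for replicates 1, 2 and 3. The plasma cell sum is 14.99 to 15.12 in the knockout and 13.52 to 14.04 in wild type, mostly from Igha and Jchain, and the other 5 lists overlap between genotypes.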

How the data were processed

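CD4+CD25+ Treg RNA, 3 HDAC6 knockout and 3 wild-type samples by the labels, was measured on 1-colour arrays. The authors deposited 1 table of RMA values (22690 probe sets), taken as log2 from their range; RMA is named in the submitters' processing notes, with no version. RMA can understate changes of dim and near-saturated probe sets. No detection calls, slides or scan dates were used here, so no batch could be tested. After removing 64 control probe sets, 22626 were fitted in limma 3.58.1 (R 4.3.3; lmFit and eBayes, genotype as the only term; two-sided, Benjamini-Hochberg). A second fit used the brightest probe set of each of 12393 genes. Symbols came from the platform annotation, updated through gene IDs (20351 of 20380 single-gene probe sets matched). Lists were described by counts and medians. Members, lists and tests were chosen with earlier results of these data known. Named genes were the members, Hdac6, Foxp3, Il2ra and Cd4, the 3 of smallest p in each list (for other cell types the 3 brightest) and the neighbours of Lag3; others were named after their values were seen. The number of arrays limits precision: the median SE was 0.095. The fit was run on simulated data with independent errors drawn from its own variance model. That cannot show how it handles effects shared between samples. Alternatives were a replicate block, 2 scalings, variance settings, array weights, filters, other probe-set rules, a threshold of 0.1 and leaving out each array; marker sums without their brightest genes were added after seeing the data. Figures used matplotlib 3.10.9.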

Additional observations from a re-analysis of the deposited data

How the results depend on the processing

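Of 147 results recomputed for the 10 probe sets of the inhibitory set, 145 kept their direction and side of the threshold and 0 reversed. The other 2 (Lag3, with trend and robust settings and at a threshold of 0.1) newly passed. A difference itself could change only with the scalings, array weights or an array left out. The block, variance settings, filters and looser threshold keep the difference and bear only on whether it passes, so no reversal was possible there. The count of probe sets of the set past the threshold was 0 as reported and 1 with trend and robust settings or at a threshold of 0.1. The count of its genes was 0 as reported and 1 with either of these or with probe sets of a mean of at least 6, and the added gene was Lag3 each time. Leaving out 1 array in turn gave 0 of both.

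Over all probe sets 44 passed as reported, 27 with the replicate number as a block, 147 with trend and robust settings, 0 without moderation (2239 at an unadjusted p under 0.05 by that linear model), 86 with array weights and 121 at a threshold of 0.1. Over genes 21 passed as reported, 12 with the block, 106 with trend and robust settings, 0 without moderation (1353 at an unadjusted p under 0.05), 49 with array weights, 36 in the upper 60% of probe sets, 61 with a mean of at least 6 and 92 at a threshold of 0.1. Leaving out 1 array gave 5 to 51 probe sets and 3 to 28 genes, with 5 probe sets without knockout replicate 2 and 3 genes without it or without wild-type replicate 2. An alternative added after seeing the data, adjusting the probe-set fit's p-values over genes, gave 20 genes.

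With trend and robust settings the listed genes that passed beside Lag3 and Igha were Ptpn11 (1 signalling partner), Nfil3 (1 transcription factor), Gpr83 and Nrp1 (2 Treg markers) and Cxcr5 (1 follicular marker). Nfil3 also passed with quantile normalization, array weights, the upper 60% of probe sets, a mean of at least 6 and a threshold of 0.1, and Cxcr5 also with the last 2 of these. Neither passed on leaving out an array. The plasma cell count of 1 was 0 without moderation and 0 to 1 on leaving out an array. Whether the replicate numbers pair the samples cannot be decided from correlations over 3 arrays per genotype. Same-numbered deviations correlated at 0.22, -0.09 and 0.10, and other pairs at -0.22 to 0.13. Not every array correlated best with its own number. The inhibitory set had 0 calls with the block and 0 without it, so the block had no call to remove. Lag3's limma adjusted p was 0.154 with the block and 0.0849 without it. The cause of these shifts was not tested.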
